A study of Mus musculus with 22 samples.

Results

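Polycomb repressive complex 1 (PRC1) is a family of chromatin complexes that place ubiquitin on histone H2A and help to keep genes silent. Every PRC1 has a catalytic core of Ring1 or Rnf2, which is the ubiquitin ligase, joined to 1 of several Pcgf proteins. The canonical complexes carry Bmi1 or Pcgf2 together with a Cbx protein, whose chromodomain reads the PRC2 mark H3K27me3, and a Phc protein, which polymerises and compacts chromatin. Variant complexes, among them PRC1.1 with Pcgf1 and Bcor, use Rybp or Yaf2 in place of Cbx and Phc. In haematopoiesis Bmi1 is known for the self-renewal of stem cells and for silencing the Cdkn2a locus, and the Cbx proteins exchange as progenitors differentiate.

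The genes examined here were 9 subunit genes of the Pcgf (Bmi1, Pcgf2, Pcgf3, Pcgf5), Cbx (Cbx2, Cbx7, Cbx8) and Phc (Phc1, Phc2) families, of 21829 protein-coding genes with an annotated start. They were chosen by name, and peaks were collected that overlap each gene body or lie within 10 kb of it. The name of canonical PRC1 covers 7 of the 9 genes. Pcgf3 and Pcgf5 are known as subunits of variant complexes and are described here as their Pcgf paralogues.

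Peak lists for H3K27ac, the acetylation of lysine 27 of histone H3 that is found at promoters and enhancers in use, came from ChIP-seq of KL cells, the Lin-, cKit+, Sca1- myeloid progenitors of mouse bone marrow. All 3 libraries, called replicates 1, 2 and 3, were of 1 group, BcorΔE9-10. This group was made from male C57BL/6 mice labelled scl-Cre-ERT +; Bcorfl/y. Tamoxifen (5 daily doses of 1 mg to mice aged 3 to 6 months) activated a Cre, driven by an Scl stem cell enhancer, that removes exons 9 and 10 of Bcor. Cells were sorted after 20 weeks. The deletion is carried by all 3 libraries, the other 19 of the 22 samples (10 of the 11 groups) were not analysed here, and no comparison with BcorWT cells was made. Per the methods the cells came from 3 mice.

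The depth recovered from the lists was 18 to 19.3 M reads, with 23410 to 25963 peaks per library and at least 8 fragments at each called summit. All 8 progenitor genes tested, such as Kit, Spi1 and Mpo, had a peak at their start in each library. None of the 8 non-haematopoietic genes did in any library, and neither did Ly6a, which encodes the Sca1 antigen excluded by the gate. Of the genes of other blood cells, 0 of 4 erythroid, 0 of 6 mature myeloid and 1 of 5 lymphoid genes (Cd5) had one in each library. Bcor itself had a fold enrichment of 9.12 ± 1.04 (SD, n = 3) at its start, which does not check the removal of exons further downstream.

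To see what the starts of these genes look like, promoter sequences were taken from RefSeq (GRCm38.p6), which matched 8 of the 9 genes with 12 promoters, each 250 bases before to 50 after a start. Cbx2 was not matched. The bases before the start are printed 5′ to 3′ on the strand of the gene, without annotated UTR bases, and CpG dinucleotides are in capitals because CpG content is set beside acetylation in the next paragraph. The 3 starts of Pcgf5, at 0, 31 and 61 kb along the gene, and the 3 of Phc2, at 0, 34 and 73 kb, are shown because acetylation differed between starts of the same gene. Bmi1 and Pcgf2 are the paralogues that alternate in canonical PRC1, and Cbx7 and Cbx8 are the Cbx genes with a peak at their start.
Pcgf5 start at 0 kb, chr19:36348079-36348308, plus strand: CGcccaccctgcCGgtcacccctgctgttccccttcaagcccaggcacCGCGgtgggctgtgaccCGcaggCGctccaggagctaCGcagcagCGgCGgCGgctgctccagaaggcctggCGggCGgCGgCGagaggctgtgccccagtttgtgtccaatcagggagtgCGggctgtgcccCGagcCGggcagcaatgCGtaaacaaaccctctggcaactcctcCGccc
Pcgf5 start at 31 kb, chr19:36378817-36379066, plus strand: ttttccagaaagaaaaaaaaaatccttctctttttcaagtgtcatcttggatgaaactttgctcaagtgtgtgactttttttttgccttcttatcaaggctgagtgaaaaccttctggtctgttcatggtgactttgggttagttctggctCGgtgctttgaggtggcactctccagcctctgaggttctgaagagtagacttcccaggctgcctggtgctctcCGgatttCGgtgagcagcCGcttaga
Pcgf5 start at 61 kb, chr19:36409498-36409747, plus strand: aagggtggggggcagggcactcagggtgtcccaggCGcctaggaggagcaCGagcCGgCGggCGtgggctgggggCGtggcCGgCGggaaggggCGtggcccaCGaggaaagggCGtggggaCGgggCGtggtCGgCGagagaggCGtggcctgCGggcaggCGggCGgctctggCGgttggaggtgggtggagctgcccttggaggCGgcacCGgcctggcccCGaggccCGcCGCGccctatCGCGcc
Phc2 start at 0 kb, chr4:128654452-128654701, plus strand: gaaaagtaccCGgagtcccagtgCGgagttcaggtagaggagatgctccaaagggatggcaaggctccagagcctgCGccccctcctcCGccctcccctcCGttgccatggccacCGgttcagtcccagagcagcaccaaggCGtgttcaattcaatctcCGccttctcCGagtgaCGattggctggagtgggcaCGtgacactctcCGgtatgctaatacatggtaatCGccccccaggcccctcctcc
Phc2 start at 34 kb, chr4:128688488-128688737, plus strand: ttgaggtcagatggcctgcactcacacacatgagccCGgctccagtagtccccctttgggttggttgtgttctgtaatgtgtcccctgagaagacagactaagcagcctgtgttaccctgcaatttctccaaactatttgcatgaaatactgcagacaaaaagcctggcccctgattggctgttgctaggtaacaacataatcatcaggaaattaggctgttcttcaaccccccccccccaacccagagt
Phc2 start at 73 kb, chr4:128727321-128727570, plus strand: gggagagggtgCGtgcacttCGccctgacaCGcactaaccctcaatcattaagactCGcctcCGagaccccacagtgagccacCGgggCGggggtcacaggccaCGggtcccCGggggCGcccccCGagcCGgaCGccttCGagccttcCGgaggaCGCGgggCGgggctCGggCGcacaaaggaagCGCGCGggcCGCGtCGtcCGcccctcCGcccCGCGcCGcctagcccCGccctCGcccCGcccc
Bmi1, chr2:18676768-18677017, plus strand: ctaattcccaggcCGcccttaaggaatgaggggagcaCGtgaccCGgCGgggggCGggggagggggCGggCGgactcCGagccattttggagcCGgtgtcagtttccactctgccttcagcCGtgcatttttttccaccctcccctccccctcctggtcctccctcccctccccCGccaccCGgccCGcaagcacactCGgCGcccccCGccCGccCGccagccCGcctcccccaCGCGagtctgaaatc
Pcgf2, chr11:97699649-97699898, minus strand: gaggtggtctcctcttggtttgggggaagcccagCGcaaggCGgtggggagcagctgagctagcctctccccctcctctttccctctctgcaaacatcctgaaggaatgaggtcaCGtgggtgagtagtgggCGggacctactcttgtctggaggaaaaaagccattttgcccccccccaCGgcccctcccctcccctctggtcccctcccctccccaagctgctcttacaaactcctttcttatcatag
Cbx7, chr15:79932653-79932896, minus strand: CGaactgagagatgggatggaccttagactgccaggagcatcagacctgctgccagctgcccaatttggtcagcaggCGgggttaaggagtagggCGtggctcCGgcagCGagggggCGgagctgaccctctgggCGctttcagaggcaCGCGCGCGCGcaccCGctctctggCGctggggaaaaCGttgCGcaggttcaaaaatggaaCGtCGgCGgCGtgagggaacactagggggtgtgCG
Cbx8, chr11:119040970-119041163, minus strand: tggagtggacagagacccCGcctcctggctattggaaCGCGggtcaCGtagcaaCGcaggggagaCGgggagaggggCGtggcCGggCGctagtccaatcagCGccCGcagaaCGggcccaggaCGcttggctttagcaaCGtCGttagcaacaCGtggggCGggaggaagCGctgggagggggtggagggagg

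Over the 300 bases, the Pcgf5 windows held 34, 5 and 35 CpG in that order and the Phc2 windows 19, 2 and 45. The window of Bmi1 held 23, that of Pcgf3 23, that of Cbx8 24 and that of Cbx7 33. Pcgf2 held 10 and Phc1 9. The Pcgf2 window was that of a start inside the gene (chr11:97699648). CpG at its most upstream start (chr11:97700497) was not counted. The Phc1 window was also that of a start inside the gene (chr6:122340227), and all its bases before that start were annotated UTR. CpG at the most upstream start of Phc1 (chr6:122340561) was not counted either. For comparison, the median was 23 (quartiles 15 and 31) in the 10102 RefSeq promoters with a peak within 1 kb in each library, and 4 (quartiles 2 and 8) in the 21088 with a peak in none. The 2 member windows with the fewest CpG, the middle starts of Phc2 and Pcgf5, had a peak in 1 library and in none. CpG content did not order the others. Cbx7 had nearly as many CpG as the first start of Pcgf5, but had a peak in 2 libraries only and at folds of 3.99 and 5.21 where that start of Pcgf5 had 27.1 and 27.3.

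**Figure D1:**
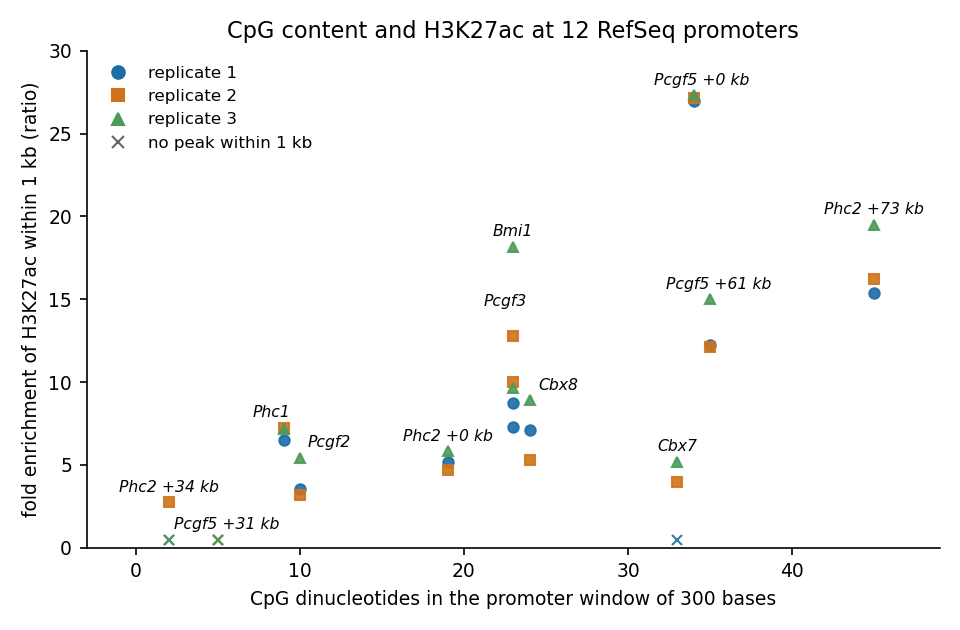
Number of CpG dinucleotides in the promoter window of 300 bases (x axis) against fold enrichment of H3K27ac within 1 kb of the start (y axis, a ratio) at 12 RefSeq promoters of 8 genes, 1 symbol per library and a cross where no peak was called; Bmi1 and Pcgf3 share the column at 23. The middle starts of Phc2 and Pcgf5, with 2 and 5 CpG, sit at the bottom left, and Cbx7, with 33, sits far below the first start of Pcgf5, with 34.

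Short motifs were searched for on both strands of the 12 windows, and matches could overlap. The GC box GGGCGG was found in 8 of 12 windows, against 35.7% of all 32851 RefSeq promoters. The E-box CACGTG was found in 4 of 12, those of Bmi1, Pcgf2, Cbx8 and the first start of Phc2, against 7.15% of all. CCAAT was found in 5 (37.4% of all), the letters GGAAGT of ETS factors in 2 (23.8%) and TATAAA in 0 (13.6%). GGGCGG and CACGTG both contain a CpG. The median was 7 CpG over all promoters, against 23 in those with a peak in each library. The shares were not compared at matched CpG content, and Pcgf5 and Phc2 each gave several windows. These are matches of letters in windows of a few related genes, not sites shown to be bound.

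H3K27ac was next compared at the starts. A TSS peak was a deposited peak within 2.5 kb of the start of any protein-coding transcript of the gene, and its TSS fold was the highest fold enrichment of any summit in such peaks, as the peak caller gave it relative to the local background of the library. Of the 9 genes, 7 (77.8%) had a TSS peak in each of the 3 libraries, against 43.3% of protein-coding genes. Cbx7 had one in replicates 2 and 3, and Cbx2 had none, as was the case for 50.8% of genes. With 9 genes chosen by name, these shares are a description and were not tested. The median of the mean TSS fold of the 7 genes was 9.92, close to the 10.2 of the 9460 genes with a TSS peak in each library.

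**Figure D2:**
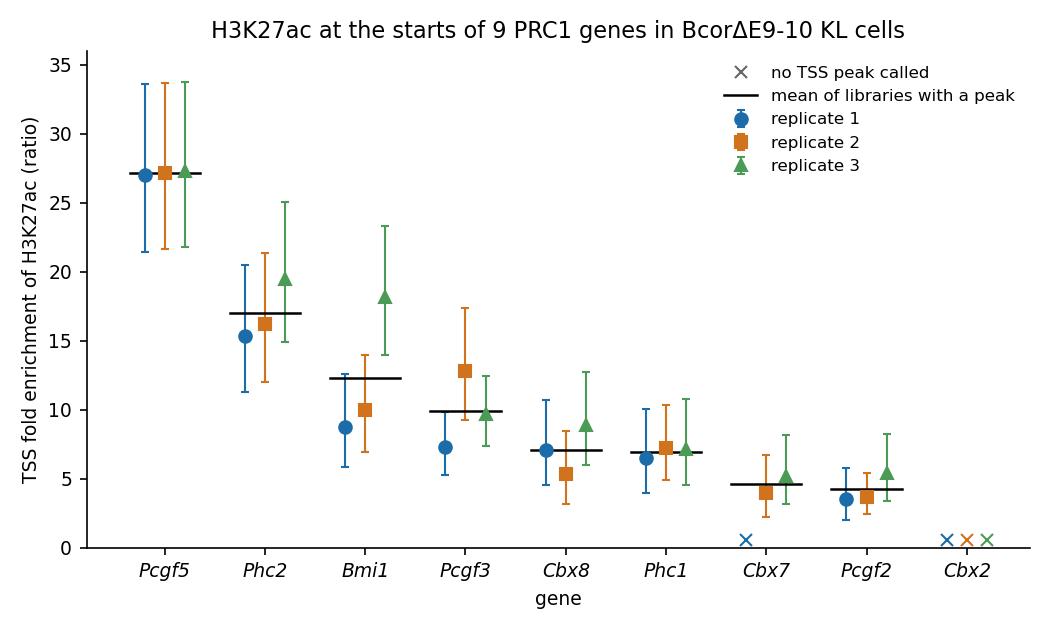
TSS fold enrichment of H3K27ac (y axis, a ratio) at the 9 genes (x axis) in replicates 1, 2 and 3 of BcorΔE9-10 KL cells, with 95% counting intervals from the fragments at the summit, the mean as a black line and a cross where no TSS peak was called. Pcgf5 sits at 27 in each library, Pcgf2 and Cbx7 at about 4 to 5, and Cbx2 has crosses only.

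Among the Pcgf genes, Pcgf5 (chr19:36348309-36460970, plus strand), a subunit of variant PRC1, had the highest TSS fold of the 9 genes, at 27, 27.1 and 27.3 in replicates 1, 2 and 3. These values rested on 78, 81 and 83 fragments and lay at the 97.4, 98.6 and 96.3 percentile of genes with a TSS peak in the same library. The 3 libraries differed by an SD of 0.166, well within the counting intervals of each (21.4 to 33.6 in replicate 1).

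Bmi1 (chr2:18677018-18686629, plus strand), the Pcgf subunit best known in haematopoietic stem cells, had TSS folds of 8.77, 10.0 and 18.2. Replicate 3 was the highest, with 60 fragments against 27 and 32. Its counting interval (13.9 to 23.3) did not overlap that of replicate 1 (5.89 to 12.6) and just overlapped that of replicate 2 (6.94 to 14). These intervals cover counting error only and not the differences between mice. Its percentile among genes was 47.9 and 54.5 in replicates 1 and 2 and 81.9 in replicate 3. The mean of 12.3 ± 5.11 (SD, n = 3) falls to 9.39 without replicate 3.

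Pcgf3 (chr5:108461232-108506976, plus strand), the closest paralogue of Pcgf5, had TSS folds of 7.28, 12.8 and 9.67. The strongest summit held 41, 40 and 58 fragments, close to the 44, 48 and 59 at Phc2. The local background expected there was 4.77 and 5.00 fragments in replicates 1 and 3 and 2.20 in replicate 2, where it was 1.93 to 2.02 at Phc2. In replicates 1 and 3 the lower fold of Pcgf3 thus went with a background over 2 times that at Phc2, on nearly as many fragments.

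Pcgf2 (chr11:97688823-97700497, minus strand), also called Mel18 and the alternative to Bmi1 in canonical PRC1, had the lowest TSS folds of the genes with a peak in each library, at 3.54, 3.71 and 5.43. They rested on 14, 25 and 20 fragments and lay at the 2.69, 4.28 and 12.5 percentile. In replicate 2 the value came from a peak 2373 bp upstream of the start, near Psmb3, a proteasome subunit gene. Within 1 kb of the Pcgf2 start the value there was 3.20, on 15 fragments.

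The 10 pairs of paralogues were compared by the log2 ratio of their TSS folds within each library, with an exact sign-flip permutation test, two-sided, over the libraries. With 3 libraries the smallest p it allows is 0.25, so no pair could pass a threshold of 0.05. Bmi1 lay above Pcgf2 by 1.31, 1.43 and 1.74 on the log2 scale, a mean of 1.49 ± 0.22 (SD, n = 3) or a ratio of 2.82, in 3 of 3 libraries (exact permutation p = 0.25, adjusted p = 0.333). The difference was 0.60 ± 0.48 with peaks within 5 kb taken as TSS peaks, since the peak of Psmb3 then counted for Pcgf2. It was 0.97 ± 0.89 at the summit closest to a start, where Bmi1 was no longer higher in each library (exact permutation p = 0.5). Bmi1 and Pcgf3 were not separated, at 0.27 ± 0.63, with Bmi1 higher in 2 of 3 libraries (exact permutation p = 0.75). Without replicate 3 the mean was -0.045.

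Pcgf5 lay above each of the other 3 Pcgf genes in 3 of 3 libraries. The log2 ratio to Pcgf5 was -1.22 ± 0.55 (SD, n = 3) for Bmi1, -1.49 ± 0.40 for Pcgf3 and -2.71 ± 0.33 for Pcgf2. Pcgf2 also lay below Pcgf3, by -1.22 ± 0.50. Each of these 4 pairs gave an exact permutation p of 0.25 (adjusted p = 0.333). The size of the lead of Pcgf5 depended on the summit, its strongest lying 878 to 883 bp inside the gene. In replicate 1 the summit closest to any start lay at the start at 61 kb (fold of 8.92). In replicates 2 and 3 it lay at the first start (8.75 and 8.10). At the first start the closest summit of replicate 1 had 5.49. At the summit closest to any start, Pcgf5 thus had a mean fold of 8.59 over different promoters. The log2 ratio to Pcgf5 was then -0.15 ± 0.42 for Bmi1 (exact permutation p = 0.75) and -0.39 ± 0.70 for Pcgf3 (exact permutation p = 0.5), no longer in the same direction in each library, and -1.12 ± 0.48 for Pcgf2. With peaks within 5 kb the ratio of Pcgf2 was -1.77 ± 0.04 to Pcgf5 and -0.28 ± 0.38 to Pcgf3 (exact permutation p = 0.5 for the latter). At the closest summit that of Pcgf2 to Pcgf3 was -0.73 ± 0.37.

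Among the Cbx genes, Cbx8 (chr11:119036305-119040969, minus strand) had TSS folds of 7.10, 5.31 and 8.91 on 21, 16 and 28 fragments. Cbx7 (chr15:79915807-79971119, minus strand), the Cbx protein known to favour self-renewal in blood stem cells, had no TSS peak in replicate 1 and folds of 3.99 and 5.21 on 12 and 17 fragments in replicates 2 and 3. In the 2 libraries with both values Cbx7 lay below Cbx8, by -0.41 and -0.77 on the log2 scale (exact permutation p = 0.5, the smallest that 2 libraries allow, adjusted p = 0.571). With peaks within 5 kb taken as TSS peaks the mean was 0.041, since an intronic region of Cbx7 then counted.

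Cbx2 (chr11:119022962-119031270, plus strand) had no peak within 2.5 kb of its start in any library. The peak nearest to its start lay 17.7, 17.7 and 17.6 kb downstream and was the TSS peak of Cbx8, which is encoded 5.03 kb beyond the end of Cbx2. On the upstream side the nearest peak lay 546 kb away in each library. The absence of a peak says that no summit passed the threshold, which the weakest called summits passed with 8 or 9 fragments, and weaker acetylation was not detectable in these lists.

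Among the Phc genes, Phc2 (chr4:128654702-128752881, plus strand) had TSS folds of 15.4, 16.2 and 19.5, at the 80.0, 84.0 and 86.0 percentile. Phc1 (chr6:122317731-122340561, minus strand) had TSS folds of 6.49, 7.25 and 7.15 on 18, 28 and 21 fragments, at the 30.3, 33.9 and 26.5 percentile. The values of the paralogues did not overlap, and the log2 ratio of Phc1 to Phc2 was -1.28 ± 0.15 (SD, n = 3; ratio 0.411), with Phc2 higher in 3 of 3 libraries (exact permutation p = 0.25, adjusted p = 0.333).

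In the order of mean TSS folds over all 9 genes, taken at the strongest summit within 2.5 kb of any start, Pcgf5 came first, followed by Phc2, Bmi1, Pcgf3, Cbx8, Phc1, Cbx7, Pcgf2 and, with no peak, Cbx2. The values of Pcgf5 and Phc2 did not overlap, and neither did those of Phc1 and Cbx7. The other neighbours in the order (Phc2 and Bmi1, Bmi1 and Pcgf3, Pcgf3 and Cbx8, Cbx8 and Phc1, Cbx7 and Pcgf2) had values that overlapped between libraries. The order changed with the definition. At the summit closest to a start Phc2 (17.0) lay above Pcgf5 (8.59), at the most upstream start alone Phc2 had 5.24, and with peaks within 5 kb Pcgf2 (7.95) lay above Cbx8 (7.11) and Phc1 (6.96).

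Several of the genes have more than 1 promoter, so starts within 1 kb of each other were grouped and each group was given the strongest summit of peaks within 1 kb. Pcgf5 has 5 such groups. The first held the fold of 27, 27.1 and 27.3 given above, and the fourth, 61.4 kb downstream, held 12.2, 12.1 and 15.0. The first was higher in 3 of 3 libraries, by 1.06 ± 0.17 on the log2 scale (SD, n = 3; ratio 2.08; exact permutation p = 0.25, the smallest possible). The longest annotated protein was 236 residues from the first and 256 from the fourth. The other 3 groups, at 30.8, 43.9 and 88.9 kb, had no peak in any library, among them the start with 5 CpG whose sequence is shown above.

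Phc2 has 3 groups of starts, and the order was the opposite. The first, from which the protein of 850 residues is annotated, had folds of 5.17, 4.72 and 5.84 on 15, 14 and 18 fragments. The third, 72.9 kb downstream and encoding at most 323 residues, had 15.4, 16.2 and 19.5 on 44, 48 and 59. The third lay above the first by 1.70 ± 0.11 on the log2 scale (SD, n = 3; ratio 3.24; 3 of 3 libraries, exact permutation p = 0.25). The second had a single peak at 2.75, in replicate 2. The comparison of Phc1 with Phc2 therefore depends on the promoter. Taken at the most upstream start of each gene alone, Phc1 lay above Phc2, by 0.41 ± 0.18.

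**Figure D3:**
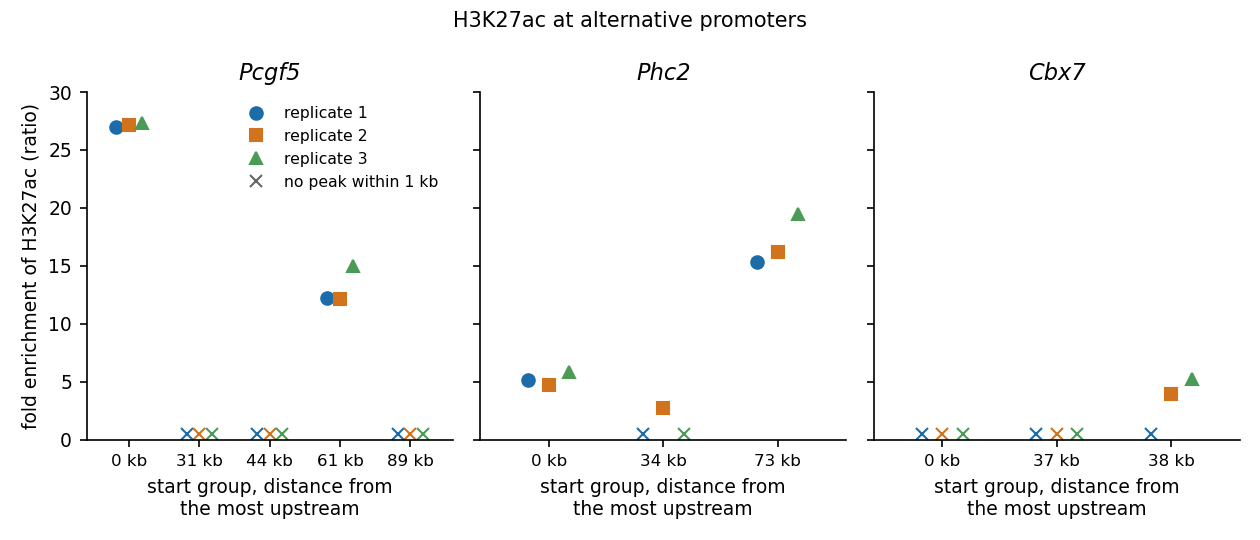
Fold enrichment of H3K27ac within 1 kb of each group of starts (y axis, a ratio) for Pcgf5, Phc2 and Cbx7, with the groups ordered along the gene and named by their distance in kb from the most upstream start, 1 symbol per library and a cross where no peak was called. In Pcgf5 the first group is highest and the group at 61 kb second, whereas in Phc2 the group at 73 kb exceeds the first, and in Cbx7 only the last group has peaks.

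Cbx7 had peaks only at the third group of starts, 38.5 kb downstream of the most upstream start, from which the longest protein (251 residues) is annotated. In Bmi1, Pcgf2 and Phc1 the first of 2 groups carried the peaks and the second, 3.35, 8.09 and 3.26 kb downstream, had none of its own within 1 kb in any library. Pcgf3, Cbx2 and Cbx8 have a single group.

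The position of the strongest summit differed between genes. It lay 8 and 11 bp upstream of a start at Cbx7 in replicates 2 and 3, and at most 93 bp from a start at Phc2. Those starts lie inside the annotated genes. At Phc1 it lay inside the gene in each library, 88 bp downstream of a start in replicate 2. In replicates 1 and 3 it lay 148 and 171 bp upstream of a start that is itself inside the gene. At Pcgf5, Bmi1, Cbx8 and Pcgf3 it lay inside the gene, at least 167 bp from the start. At the first promoter of Pcgf5, 1 peak of 1625, 2439 and 2658 bp held a weak summit upstream of the start and stronger ones inside the gene. In replicate 1 the fold was 5.49 at 225 bp upstream, 21.0 at 401 bp downstream and 27 at 878 bp downstream. In replicate 2 it was 8.75 at 218 bp upstream, 16.8 at 300 bp and 27.1 at 883 bp downstream. Replicate 3 had 8.10 at 211 bp upstream, 22.2 at 367 bp and 27.3 at 883 bp downstream. An antisense transcript, Gm47735, starts 11 bp from the Pcgf5 start, and since ChIP-seq has no strand the acetylation there cannot be assigned to 1 of the 2.

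At Bmi1 the strongest summit lay 246, 196 and 186 bp inside the gene. A separate peak upstream of the start was called in replicates 1 and 3 (folds of 5.17 and 7.20) and not in replicate 2. At Cbx8 both sides had a peak in each library, with 7.10, 5.31 and 8.91 inside the gene and 4.10, 4.30 and 5.20 upstream of the start. At Pcgf3 the upstream peak was called in replicates 2 and 3 only, at 4.0 and 3.54.

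Taking the body of each gene and 10 kb on either side, peaks of the 3 libraries merged into 39 regions. Of these, 16 were found in each library, 5 in 2 and 18 in 1. A region at the start of Cbx8 lies in the windows of both Cbx2 and Cbx8 and was counted once, as an own start. Regions at the genes' own starts numbered 17, of which 11 were found in each library. Among the 11 was a region counted for Pcgf2 (chr11:97702710-97703102). Its strongest summit lay 2441 bp from a Pcgf2 start and 461 bp from a start of Psmb3. Another 5 lay at the start of another protein-coding gene (4 in each library), and 2, each in 1 library, near the start of a noncoding transcript. The remaining 15 were distal, that is, over 2.5 kb from any annotated start, and 1 of these (6.67%) was found in each library, against 16.7% of the 14757 distal regions of the series.

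**Figure D4:**
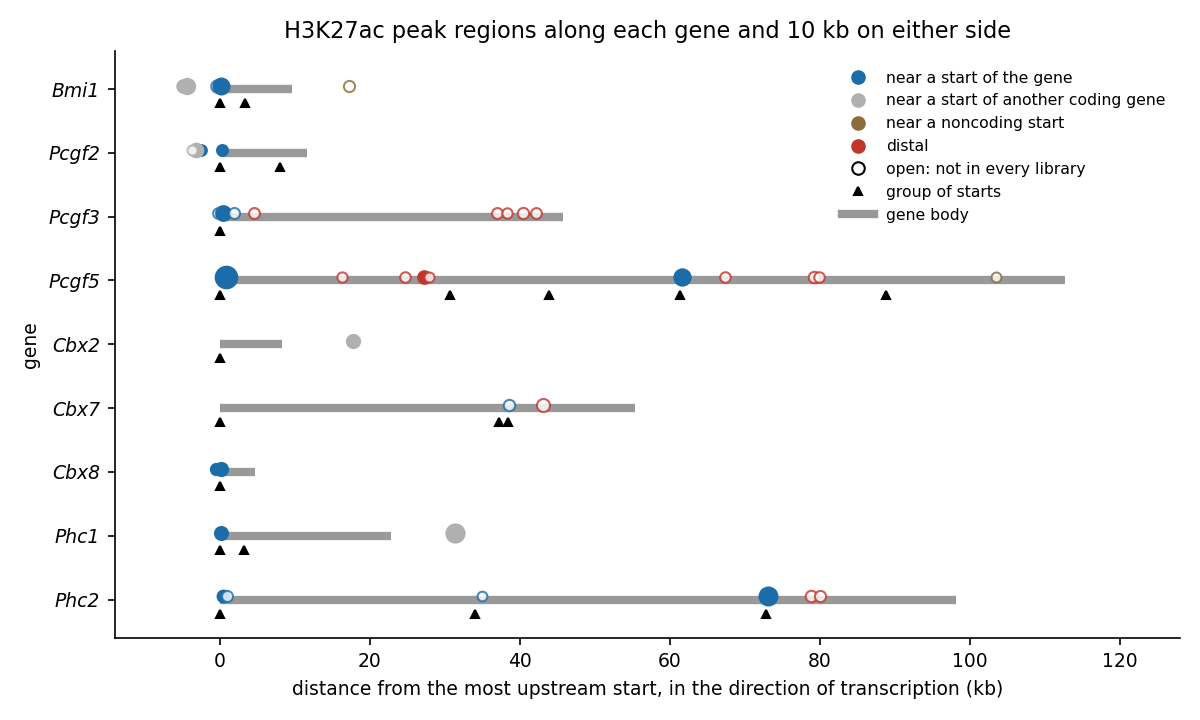
Position of merged H3K27ac peak regions along each of the 9 genes (y axis), as distance in kb from the most upstream start in the direction of transcription (x axis), with gene bodies in grey, groups of starts as triangles and larger circles for a higher mean fold enrichment. Colours give the kind of start that a region lies near, red circles being distal, and filled circles were found in each library and open ones were not. The single filled red circle is the distal region in an intron of Pcgf5, and the only circle for Cbx2 is the start of Cbx8.

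The distal region found in each library lay in an intron of Pcgf5 (chr19:36374255-36375974), upstream of its second group of starts and 3572 bp from it. Its fold was 6.49, 6.28 and 6.18, with 18 fragments in each library, and differed by an SD of 0.156. Cbx7 had a distal region in an intron in replicates 2 and 3 (chr15:79927753-79928314), 4569 bp downstream of a start. Its fold of 7.38 and 6.79, on 30 and 28 fragments, exceeded that of the Cbx7 TSS peak (3.99 and 5.21) in both libraries. Replicate 1 had no peak of Cbx7 at all, at its start or elsewhere in the window. A distal region in 2 libraries was also found at the 3′ end of Pcgf3, with folds of 4.0 and 4.88.

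The sequences of the first 2 regions, 300 bases about the strongest summit on the plus strand of GRCm38 with CpG in capitals, differ in base composition and are shown for that reason.
Pcgf5 intron, chr19:36375346-36375645: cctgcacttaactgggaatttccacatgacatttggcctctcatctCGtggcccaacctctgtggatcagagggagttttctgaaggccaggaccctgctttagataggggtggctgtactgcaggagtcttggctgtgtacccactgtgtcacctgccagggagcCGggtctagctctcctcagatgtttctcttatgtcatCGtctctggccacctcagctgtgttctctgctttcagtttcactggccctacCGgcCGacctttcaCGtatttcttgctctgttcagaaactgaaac
Cbx7 intron, chr15:79927797-79928096: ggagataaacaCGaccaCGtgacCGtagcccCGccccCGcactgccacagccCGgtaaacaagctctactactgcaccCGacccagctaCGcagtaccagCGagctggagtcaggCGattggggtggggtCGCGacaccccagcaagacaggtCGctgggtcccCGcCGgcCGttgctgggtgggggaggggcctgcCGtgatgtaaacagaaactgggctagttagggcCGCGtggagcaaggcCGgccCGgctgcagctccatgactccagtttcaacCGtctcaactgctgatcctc
The Cbx7 region held 22 CpG and 64.3% G and C, and the Pcgf5 region 6 CpG and 52.7%. Over all 14757 distal regions of the series the median was 4 CpG, and 1.18% had 22 or more, so that the Cbx7 region, with no start annotated within 2.5 kb, was close to the median of 23 of the promoters with a peak in each library. Letters of 4 motifs were searched for on both strands. AGATAA of GATA factors was found once in the Cbx7 region (12.5% of distal regions hold it) and not in that of Pcgf5. GGAAGT of ETS factors is held by 23.5% of distal regions and was found in neither region. The same was true of TGTGGT of RUNX factors (23.6%), and of TGANTCA of AP-1 factors (9.18%).

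The 12 distal regions found in 1 library had folds of 3.07 to 4.78 (median 3.80). By gene, Pcgf5 had 7 distal regions, Pcgf3 5, Phc2 2 and Cbx7 1. Bmi1, Pcgf2, Cbx2, Cbx8 and Phc1 had none. The genes differ in length, Pcgf5 and Phc2 spanning 113 and 98.2 kb and Cbx8 4.67 kb, and the part of length in these counts was not tested.

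Some windows also held promoters of neighbouring genes. In that of Bmi1, 2 regions belonged to the start of Commd3, which ends 0.786 kb upstream of Bmi1, and the stronger had folds of 9.57, 9.69 and 13.6. In that of Pcgf2, the start of Psmb3 had 7.65, 8.0 and 8.19, above the Pcgf2 start in each library. M6pr, a gene for the mannose 6-phosphate receptor, gave 15.5, 18.2 and 18.9 in the window of Phc1, more than 2 times the Phc1 values. The sole peak in the window of Cbx2 was the start of Cbx8. All peaks included, the length covered was 3538, 6337 and 4064 bp for Pcgf5, the most of the 9 genes in each library, and 280, 243 and 353 bp for Cbx2.

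Super-enhancers, stretches of dense acetylation, were called by joining peaks within 12.5 kb and ranking them by summed fold times length, up to the point where the scaled curve reaches a slope of 1. This cut gave 1383, 1083 and 1190 super-enhancers in replicates 1, 2 and 3. The paper ranked enhancers by tag count and reports far fewer. The calls here are therefore not comparable with those of the paper. Of the 9 genes, 1 was at a super-enhancer in at least 2 libraries, against 8.33% of protein-coding genes. This was Pcgf5, in 3 of 3 libraries, at ranks 278, 58 and 117 of 11779, 12327 and 11525 joined regions. Its region was a single peak, that of the first promoter, and the call fell to 1 library when TSS peaks were left out and to 0 when regions were ranked by summed fold alone. Bmi1 was at one in replicate 3 (rank 1040, in a region that also holds the start of Commd3) and Phc2 in replicate 1 (rank 1036). Joining peaks within 5 kb gave Phc2 a super-enhancer in 2 libraries.

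Other genes of the PRC1 families were set beside their paralogues. Of the 6 Pcgf genes, Pcgf6, a subunit of a variant complex, had a mean TSS fold of 6.13 ± 1.47 (SD, n = 3), between Pcgf3 (9.92 ± 2.77) and Pcgf2 (4.23 ± 1.05), and Pcgf1, the partner of Bcor in PRC1.1, had no TSS peak in any library. Cbx6, a further Polycomb Cbx gene, had no TSS peak in any library, like Cbx2. Of the 3 Phc genes, Phc3 had 17.3, 20.8 and 23.9 in replicates 1, 2 and 3, above Phc2 in each library.

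Both genes of the catalytic core had a TSS peak in each library, with 25.1 ± 2.51 (SD, n = 3) for Ring1 and 14.6 ± 2.17 for Rnf2. Of 4 other canonical subunits, Phc3 (20.7 ± 3.31) and Scmh1 (19.9 ± 1.23) had one in each library, and Cbx6 and Scml2 had none. Variant subunits had one in 19 of 22, from 6.13 for Pcgf6 to 22.4 ± 3.97 for Usp7, a deubiquitinase. Pcgf1 and Auts2 had none and Bcorl1 had one in 2 libraries. The median of the variant subunits with a TSS peak in each library was 12.2. It was 9.92, the value of Pcgf3, for the 7 examined genes with a TSS peak in each library. Those 7 include Pcgf3 and Pcgf5, themselves subunits of variant complexes, so the 2 medians do not set canonical against variant subunits.

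The HP1 genes, whose chromodomains read H3K9 methylation, had TSS peaks in 3 of 3, from Cbx1 (7.56 ± 1.10) to Cbx3 (14.2 ± 1.93). The PRC2 core genes, which make the mark that Cbx proteins read, had them in 4 of 4, from Ezh1 (8.10 ± 0.548) to Eed (20.3 ± 2.94). Of 4 classical targets of PRC1, Hoxa7 (8.78 ± 1.81) and Hoxa9 (6.58 ± 0.576) had a TSS peak in each library, and the cell cycle inhibitor genes Cdkn2a and Cdkn2b had none in any. These lists were compared by counts and medians alone.

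**Figure D5:**
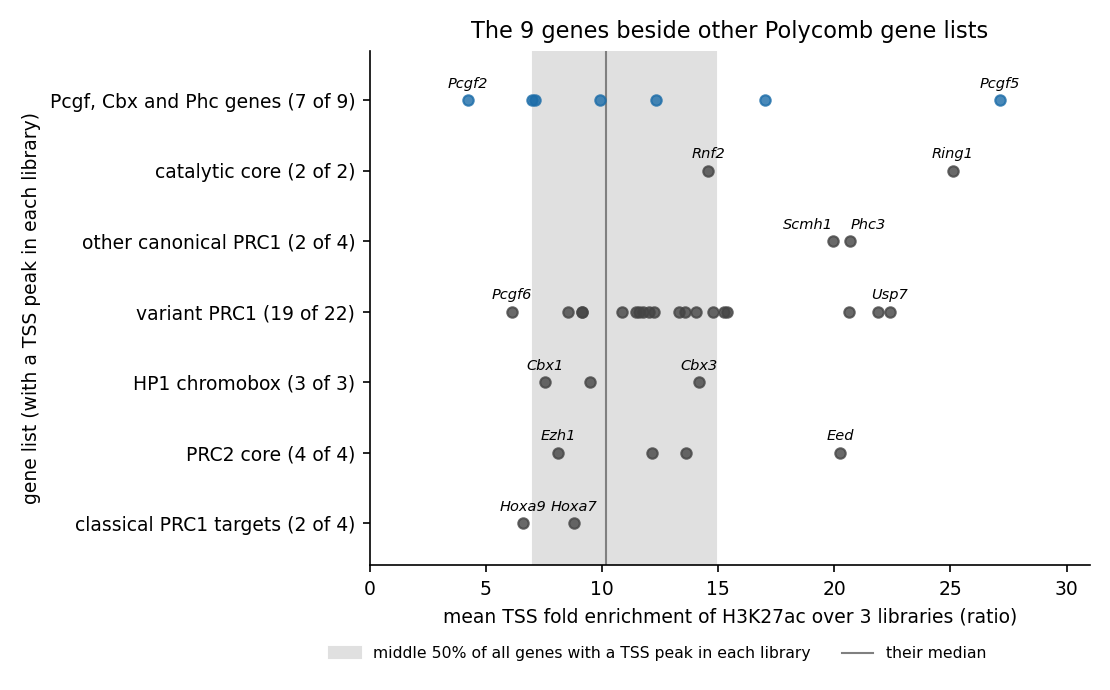
Mean TSS fold enrichment of H3K27ac over 3 libraries (x axis, a ratio) for genes with a TSS peak in each library, by gene list (y axis, with the number of such genes of all in the list), the highest and lowest gene of each list named. The grey band spans the quartiles of all such genes, 7.01 to 14.9, and the line their median of 10.2. Pcgf2 lies below the band, as do Phc1, Pcgf6 and Hoxa9, and Pcgf5 lies above the highest gene of each other list.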

How the data were processed

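H3K27ac ChIP-seq of KL cells from 3 BcorΔE9-10 mice was analysed from 3 peak lists. Per the methods and labels, the authors mapped 75 bp single-end reads to mouse GRCm38 (bowtie2), discarded duplicates and ran MACS2 2.1.1 on each library by itself. The control and peak-calling settings were not given in the sources used here. Per summit, the deposited lists give a fold enrichment (a ratio to the local background), the −log10 of its p-value and q-value (q of 0.0499 at most), and a score, which was not used.

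Fragments at each summit were recovered by solving the peak caller's fold and p-value equations (100% of summits, within 0.001 on the −log10 scale). Counting intervals are exact 95% Poisson intervals and cover counting error only. The background gave depths of 18.0, 18.9 and 19.3 M reads, taking fragments of 200 bp. Summits sharing an interval were 1 peak. Gene models were GENCODE M21, and coordinates are in GRCm38, counted from 1. Peaks ended within the RefSeq chromosome lengths. The script for fragments and TSS folds was tested on simulated data (Python 3.11.15, numpy 2.4.6, pandas 2.3.3, scipy 1.17.1).

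Ratios of TSS folds were tested by exact sign-flip permutation over libraries, two-sided, Benjamini-Hochberg adjusted over the 8 pairs with a value (7 with 3 libraries). With so few libraries the p-value depends mainly on whether the ratios agree in direction, not on their spread. It was 0.25 in this test for an SD of 0.147 (Phc1 over Phc2) and of 0.552 (Bmi1 over Pcgf5). Alternatives were the peak threshold (−log10 q of at least 5), TSS window, start set, summit, flank, stitching and leaving out each library. Named were the 9 genes, genes of the other lists that lacked a TSS peak in a library or had the highest or lowest mean TSS fold, genes whose starts lie near the 9 genes' starts or peaks, and distal regions found in each library; the Cbx7 and Pcgf3 distal regions, Bcor and the marker genes were named besides. The genes and lists were chosen with earlier results of these data known. One entry of the lists is not reported here.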

Additional observations from a re-analysis of the deposited data

How the results depend on the processing

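The number of genes with a TSS peak in each library was 7, 6 with a −log10 q of at least 5 (without Pcgf2), 8 without replicate 1 (with Cbx7) and 7 under the other alternatives run. Of the paralogue ratios, 3 changed direction: Bmi1 over Pcgf3 without replicate 3 (-0.045; leaving out each library gave -0.045 to 0.59), Cbx7 over Cbx8 with a TSS window of 5 kb (0.041), and Phc1 over Phc2 with the most upstream start only (0.41); the first has values on both sides of 0 among the libraries, and the others take in or leave out a peak by construction. The number of genes at a super-enhancer in at least 2 libraries was 1, and became 2 with stitching within 5 kb, 0 with TSS peaks left out and 0 with ranking by summed fold. A −log10 q of at least 5 lowered the libraries with a TSS peak from 3 to 2 for Pcgf2 and from 2 to 1 for Cbx7, and with the most upstream start only Cbx7 went from 2 to 0. Counting each value of a single gene in each setting with all libraries, 57 moved by more than their SD and 102 by less. With a library left out, all 102 such values moved by less, but this outcome was fixed in advance. Leaving out 1 of 2 or 3 values cannot move a mean by more than its SD, so this count says nothing about dependence on single libraries. No paired analysis was possible because 1 group was analysed, so that replicate numbers pair no samples between groups. The lists hold no summit under 8 fragments, so weaker acetylation is not represented.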
